A study of Mus musculus with 7 samples.

Results

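JUNB regions called in both siControl libraries and in neither siChst7 library numbered 203 of 12655 joined JUNB regions. They were found by joining peaks of 4 peak lists that overlapped by at least 1 bp and keeping the joined regions with a peak in each siControl list and in no siChst7 list. The regions were thus chosen by the peak calls themselves, and the calls, fold enrichments and widths given below are descriptions with no test of siChst7 against siControl. The background of the same rule was 1.60% of all joined regions for siControl-only regions, 3.88% for siChst7-only regions (491) and 22.0% for regions common to all 4 lists (2785), and nothing about JUNB binding is read from the siControl-only count itself.

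The cells were mouse embryonic fibroblasts of the line iMGT-Myh6-eGFP-MEF, in which doxycycline switches on Mef2c, Gata4 and Tbx5 (MGT), a trio of heart transcription factors, and a green reporter follows the cardiac myosin gene Myh6. By the titles, 2 JUNB libraries came from cells given an siRNA against Chst7 (siChst7), an enzyme that adds sulfate to chondroitin, and 2 JUNB libraries from cells given a control siRNA (siControl). All 4 were from cells given 1 µg/mL doxycycline the day after transfection and collected at day 1 of MGT expression, so the siControl cells were reprogramming cells and not untreated fibroblasts. Beside siControl, the protocol text lists siJunb and siH1f0 but no siRNA against Chst7, which appears in other label fields. A further 3 IgG libraries were not analysed here, and no antibody background stands beside any value. In CUT&RUN a nuclease tied to an antibody releases the DNA next to the bound protein, and a peak is a place where such fragments gather. Fewer cells with JUNB at a place cannot be told apart from less JUNB there in each cell.

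JUNB is a subunit of AP-1, a family of leucine zipper transcription factors that bind DNA as pairs, commonly a Jun protein with a Fos protein. AP-1 pairs bind the short palindrome TGANTCA, and many of their sites lie in enhancers far from gene starts. In fibroblasts AP-1 responds to serum, growth factors and stress, and it is known for keeping fibroblast enhancers active and for restraining reprogramming to other cell types.

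Of the 203 siControl-only regions, 16 (7.88%) overlapped a promoter window of a protein-coding gene, which runs from 250 bases before the start of transcription to 50 after it (RefSeq sequences on GRCm38.p6, the assembly of mm10). The share was 5.50% (27) for siChst7-only regions, 5.96% (166) for common regions and 7.14% (903) for all regions. The 16 regions touched 18 promoters, and 5 of these 18 (27.8%) held the AP-1 letters TGANTCA, which read the same on both strands. Of promoters under siChst7-only regions 6.06% (2 of 33) held them, and of promoters under common regions 19.4% (39 of 201). Under all JUNB regions the share was 14.2% (153 of 1080), and over all 21263 protein-coding promoter windows of that length 6.99%. The 5 promoters held 5 distinct matches, because S100a11 had 2 and the windows of the divergent genes Sap30bp and Recql5 shared 1. Of the 5 matches, 4 lay inside the siControl-only region, in 3 regions. The match near Zfp790 lay outside its region. The promoters of those 3 regions are shown first, and that of Ccdc130 is shown for its match to the related cyclic AMP response element, TGACGTCA. This element was in 5.56% of promoters under all JUNB regions and in 2.23% of all promoters. The sequences read 5′ to 3′ along the gene, and capitals mark the matches.
S100a11: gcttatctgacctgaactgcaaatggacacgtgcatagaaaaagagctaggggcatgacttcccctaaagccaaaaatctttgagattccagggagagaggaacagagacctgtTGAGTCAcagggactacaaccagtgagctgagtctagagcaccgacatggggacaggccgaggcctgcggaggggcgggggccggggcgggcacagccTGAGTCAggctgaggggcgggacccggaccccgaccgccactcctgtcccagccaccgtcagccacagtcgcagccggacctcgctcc
Sap30bp: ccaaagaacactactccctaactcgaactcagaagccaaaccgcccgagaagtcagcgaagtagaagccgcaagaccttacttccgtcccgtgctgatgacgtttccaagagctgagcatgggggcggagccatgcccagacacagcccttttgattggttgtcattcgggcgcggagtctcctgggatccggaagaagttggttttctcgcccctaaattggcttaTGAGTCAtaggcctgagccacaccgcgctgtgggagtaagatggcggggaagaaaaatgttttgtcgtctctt
Ascc3: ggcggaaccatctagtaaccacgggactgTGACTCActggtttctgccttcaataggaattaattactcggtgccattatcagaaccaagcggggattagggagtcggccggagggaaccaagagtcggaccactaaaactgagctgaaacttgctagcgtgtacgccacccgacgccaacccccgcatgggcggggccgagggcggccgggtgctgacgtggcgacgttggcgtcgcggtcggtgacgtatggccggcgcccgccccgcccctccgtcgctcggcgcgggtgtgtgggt
Ccdc130: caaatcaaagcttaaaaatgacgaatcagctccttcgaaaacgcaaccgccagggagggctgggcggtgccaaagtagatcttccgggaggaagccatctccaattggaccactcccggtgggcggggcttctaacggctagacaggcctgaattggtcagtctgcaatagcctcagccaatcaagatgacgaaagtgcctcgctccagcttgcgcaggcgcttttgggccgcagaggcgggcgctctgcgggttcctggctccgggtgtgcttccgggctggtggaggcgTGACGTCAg

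The S100a11 window (chr3:93520246-93520545, plus strand) lay entirely inside its region, and its matches began 136 and 38 bases before the start. S100a11 encodes a calcium-binding protein of the S100 family. The region had folds of 6.44 and 5.59 in the siControl lists, in replicate order, and lay 1.98 kb from a common region. The Sap30bp window (chr11:115933409-115933708, plus strand) also lay entirely inside its region, with folds of 6.80 and 9.52. Its match began 23 bases before the Sap30bp start and 150 bases before the start of Recql5, a DNA helicase gene on the other strand. The Ascc3 window (chr10:50592419-50592718, plus strand) was covered for 201 bases, with the match 221 bases before the start of this helicase gene and folds of 6.85 and 5.95. The Ccdc130 window (chr8:84270353-84270652, minus strand) was covered for 286 bases, and folds were 7.12 and 8.08. In none of these 4 was the match at the summit: the distance from the centre of the match to the summit of the region was 59 bp at Sap30bp, 73 bp and 171 bp at S100a11, 145 bp at Ascc3 and 215 bp at Ccdc130. The CCAAT box, searched as CCAAT on either strand, was in 14 of the 18 promoters (77.8%). It was in 36.4% of promoters under siChst7-only regions, 37.3% under common regions, 48.8% under all JUNB regions and 38.2% of all promoters. The overlapping windows of Sap30bp and Recql5 shared their CCAAT boxes, as did those of Pms2 and Aimp2, so these boxes count again. The TEAD letters GGAATG, also on either strand, were in 2 of 18 (11.1%), against 12.1%, 19.9%, 14.5% and 13.6% in the same order. The 4 motifs do not contain one another. These are counts of letters in a few windows, and no sequence outside promoters was used here.

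The siControl-only regions stood low in the siControl lists by the authors' own values, and siChst7-only regions also stood below common regions in the siChst7 lists. Fold enrichment here is the peak caller's ratio of signal to local background at the summit. In the siControl replicate 1 list it ran from 1.18 to 11.3 with a median of 6.08 over siControl-only regions, and in the siControl replicate 2 list from 1.23 to 14.3 with a median of 5.59. Common regions had medians of 8.90 and 8.08 in the same lists, and their highest folds were 63.3 and 81.3. In the siChst7 lists, siChst7-only regions had median folds of 6.35 and 5.68, against 10.6 and 7.68 for common regions. No siControl-only region stood in the best 10% of the replicate 1 list by q, and 2 stood in the best 10% of the replicate 2 list. The last 25% of the lists held 62 (30.5%) and 89 (43.8%) of them. Both lists end near a q of 0.01, and the siControl-only regions nearest to that limit had a −log10 q of 2.36 and 2.07.

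The 2 siControl libraries gave similar folds for most of these regions. The folds were within 1.5 times of each other in 180 of 203 regions (88.7%), and in 80.4% of common regions. These shares do not measure replicate agreement. The siControl-only regions needed a call in both lists, and their folds lay in a narrow band that makes close pairs likely. Its quartiles were 5.34 to 7.09 in replicate 1 and 4.97 to 6.63 in replicate 2. The widest gap was a ratio of 2.36, at a region 7.7 kb from Ice1, a gene of an elongation complex for small nuclear RNA transcription, with folds of 5.15 and 12.2. Many regions carried exactly the same value. The 203 regions took 95 distinct fold values in replicate 1 and 87 in replicate 2, at 2 decimals, and a fold of 6.44 stood for 20 regions in replicate 1. The regions near Jun, Smad3, Foxp1 and Stil had the same pair of folds, 6.44 and 6.83, and the same pair of −log10 q values, 5.89 and 6.55. A rank among such regions separates few of them.

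**Figure D1:**
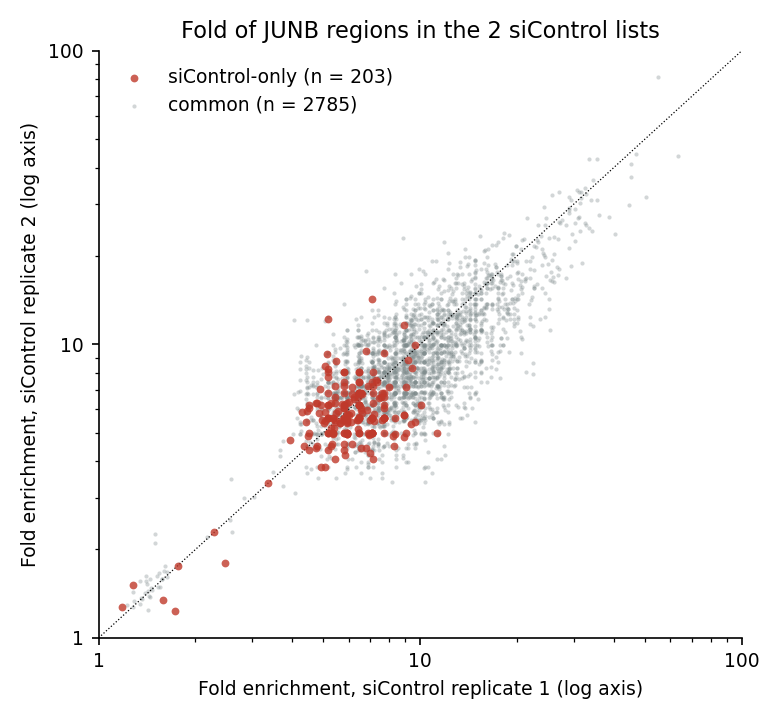
Fold enrichment in siControl replicate 1 (horizontal, log axis) and replicate 2 (vertical, log axis), 1 point per region, for 203 siControl-only regions (red) and 2785 common regions (grey), with the line of equal folds dotted. The red points gather around medians of 6.08 and 5.59 inside the lower part of the grey cloud, with 7 regions under a fold of 3 in each list.

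Regions just outside the rule show where the line was drawn. Of 3942 regions called in both siControl libraries, 203 (5.15%) were called in no siChst7 list, 901 (22.9%) in siChst7 replicate 1 alone, 53 (1.34%) in siChst7 replicate 2 alone and 2785 in both. The siChst7 lists held 10163 and 4735 peaks, and the siControl lists 6469 and 5827. The 53 regions with a call in siChst7 replicate 2 alone had median siControl folds of 5.93 and 5.80, near those of the siControl-only regions, and the 901 had 6.90 and 6.49. In siChst7 replicate 1 the 901 had a median fold of 7.48, and their lowest −log10 q was 2.14.

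Peaks of siControl-only regions were narrower than those of common regions, and the same held for siChst7-only regions. Single peaks of these regions had a median width of 304 bp in siControl replicate 1 (205 peaks) and 273 bp in replicate 2 (204 peaks), against 619 bp and 524 bp for peaks of common regions. In the siChst7 lists, peaks of siChst7-only regions had medians of 432 bp and 304 bp, against 769 bp and 524 bp for peaks of common regions. Common peaks in the same range of −log10 q as siControl-only peaks were also wider. Under the 1 bp overlap rule, a wider peak touches a siChst7 peak more readily and so leaves the siControl-only class. Matching on q does not remove this, so the widths cannot be told apart from the rule. Within the interquartile range of the siControl-only values, 4.38 to 7.08 in replicate 1, siControl-only peaks had a median of 304 bp (n = 105) and common peaks 455 bp (n = 496). Within 3.64 to 6.55 in replicate 2 the medians were 258 bp (n = 110) and 395 bp (n = 663). After joining, siControl-only regions ran from 205 to 1070 bp with a median of 411 bp, siChst7-only regions had a median of 515 bp, and common regions, which are joined from 4 lists and not 2, had 925 bp. Summits of the 2 siControl peaks of a region lay a median of 82 bp apart in siControl-only regions, 90 bp between the siChst7 peaks of siChst7-only regions and 68 bp between the siControl peaks of common regions.

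**Figure D2:**
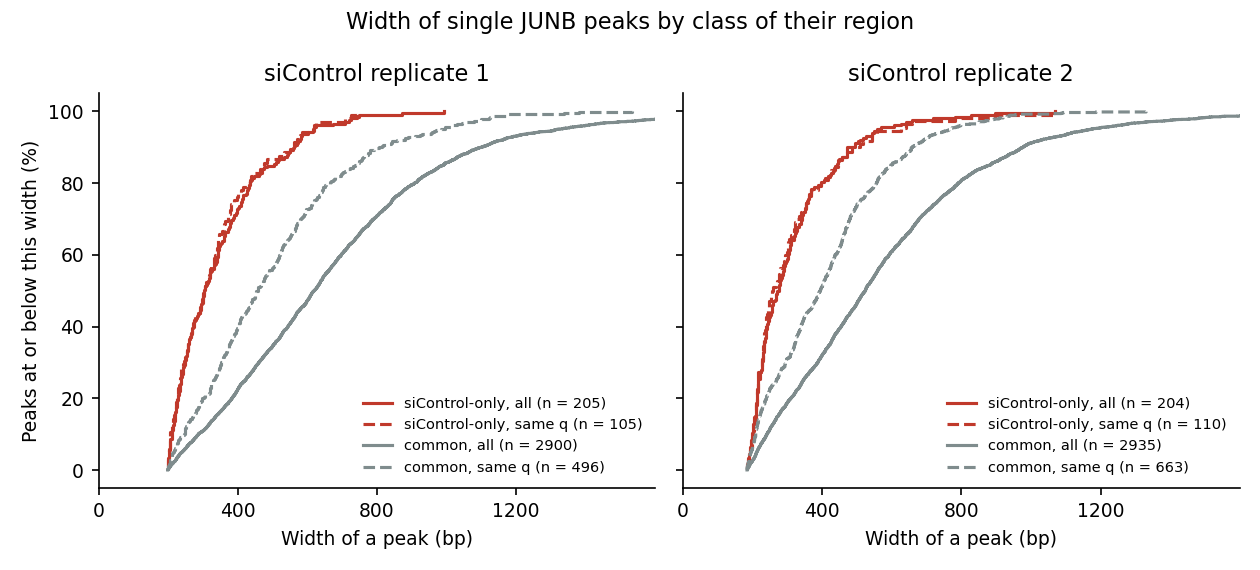
Cumulative share of single peaks (vertical, %) by width (horizontal, bp) in siControl replicate 1 (left) and replicate 2 (right), for peaks of siControl-only regions (red) and common regions (grey); dashed lines keep peaks whose −log10 q lies in the interquartile range of the siControl-only values. The red curves stand left of the grey ones in both lists, with medians of 304 and 273 bp against 619 and 524 bp, and the dashed grey medians are 455 and 395 bp.

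The widest siControl-only regions were nearest to Wasl, Pax8, Calm3, Stard13 and Creb3l1. The 1070 bp region at Wasl, which encodes the actin nucleation factor N-WASP, lay inside the gene (chromosome 6, 24628018 to 24629087, mm10) with folds of 8.90 and 5.72. The region inside Pax8, a paired-box transcription factor gene, was 992 bp wide and had folds of 9.02 and 7.13. The Calm3 region, 891 bp upstream of the 5′ end of this calmodulin gene, was 898 bp wide with folds of 10.1 and 6.21. Stard13, a START-domain protein gene, had a region of 886 bp with folds of 6.46 and 5.66, and Creb3l1, a membrane-bound transcription factor gene, one of 871 bp with folds of 8.90 and 5.72. Creb3l1 also owned 2 common regions, and Wasl, Pax8 and Calm3 owned none.

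Most siControl-only regions lay away from gene ends. The summit lay within 1 kb of an end of a protein-coding gene in 27 of 203 (13.3%, 95% interval 8.95 to 18.8 by the exact Clopper-Pearson method, for counting error alone), against 54 of 491 siChst7-only regions, 7.97% of common and 12.1% of all regions. It lay inside a gene in 100 (49.3%, interval 42.2 to 56.4), against 53.8% of siChst7-only, 51.1% of common and 53.7% of all regions. Between 10 and 100 kb from a gene end lay 102 (50.2%), and 23 (11.3%) lay beyond 100 kb, against 15.9% of siChst7-only, 12.9% of common and 12.7% of all regions. Exons and introns were not used here. Chromosomes 2, 7 and 10 had 17 siControl-only regions each. Chromosome 7 held 8.37% of siControl-only and 4.99% of all regions, and chromosome 12 held 7.39% and 4.21%. Chromosomes 18 and 1 held 0.985% and 4.93%, against 3.07% and 7.37% of all regions. An additional 4 lay on unplaced contigs with folds of 1.18 to 1.73, and 1 on chromosome Y with folds of 4.36 and 4.51.

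The regions common to all 4 lists were not close neighbours of most siControl-only regions. The median distance to the nearest common region was 132 kb for siControl-only regions, 113 kb for siChst7-only regions, 76.6 kb between common regions and 105 kb for all regions. Within 10 kb of a common region lay 27 of 203 siControl-only regions (13.3%, interval 8.95 to 18.8), against 15.7% of siChst7-only, 21.9% of common and 17.1% of all regions. More than 1 Mb from any lay 25 (12.3%, interval 8.13 to 17.6), against 6.72%, 7.15% and 8.01% in the same order. The distance of common regions to one another depends on their own number and clustering, and no test was made between classes.

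**Figure D3:**
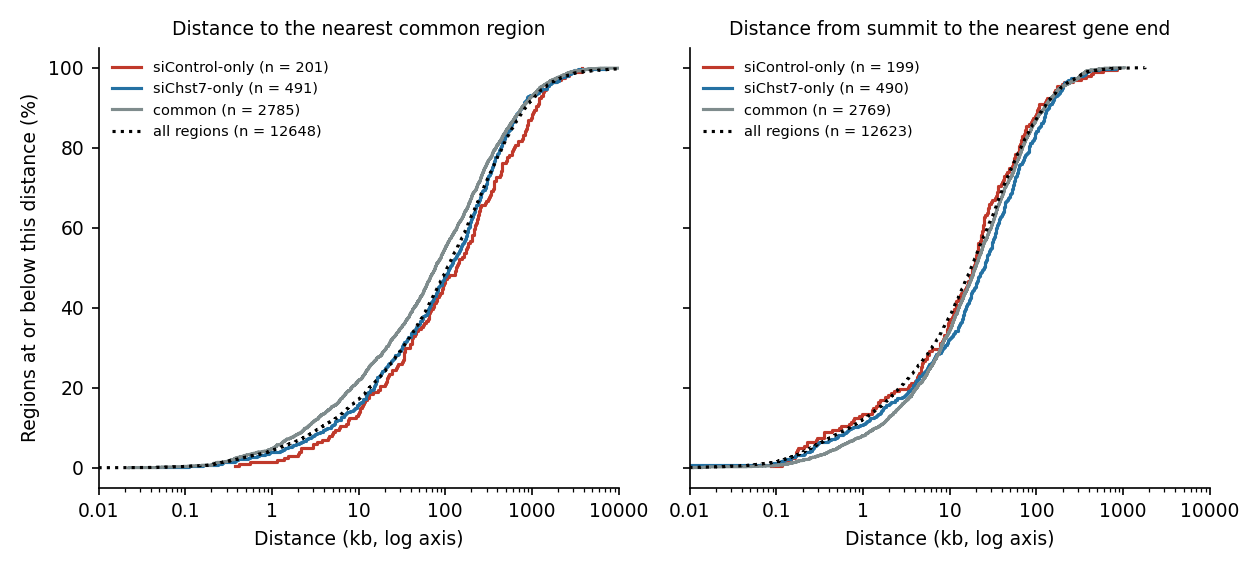
Cumulative share of regions (vertical, %) by distance (horizontal, kb, log axis) to the nearest common region (left) and from the summit to the nearest gene end (right), for siControl-only (red), siChst7-only (blue), common (grey) and all regions (dotted). On the left the red curve lies right of the grey one, with medians of 132 and 76.6 kb. The medians there are 113 kb for siChst7-only and 105 kb for all regions. On the right the curves lie close together, with medians of 18.9 kb for siControl-only and 19.6 kb for common regions.

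The siControl-only regions nearest to a common region, contigs left out, were at Sqstm1, Prr5l and Igf2bp2. The Sqstm1 region (chromosome 11, 50210845 to 50211061) was 217 bp wide, had folds of 5.90 and 6.32, and lay 412 bp from a common region and 164 bp upstream of the start of this gene for an autophagy receptor. Its whole width fell inside the promoter window, which held none of the AP-1, CRE and CCAAT letters. The Prr5l region, inside the gene of a regulator of mTOR complexes, lay 556 bp from a common region with folds of 5.64 and 5.37. That at Igf2bp2, an RNA-binding protein gene with 3 common regions, lay 1.38 kb away with folds of 6.94 and 4.89. The farthest was inside Angpt2, which encodes a ligand of the endothelial receptor Tie2, and inside the overlapping gene Mcph1, 3764 kb from any common region (chromosome 8, 18726149 to 18726550, folds 7.14 and 6.29). Fbxo33, Rassf9, Wasl and Grk5 followed at 3751, 2712, 2679 and 2426 kb.

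Some siControl-only regions stood beside a siChst7 peak without touching it. A siChst7 peak lay within 1 kb of 26 siControl-only regions (12.8%, interval 8.54 to 18.2) and within 10 kb of 76 (37.4%, interval 30.8 to 44.5). For siChst7-only regions the shares near a siControl peak were 10.2% and 33.0%. The closest pair was at Arc, an activity-regulated gene, where 6 bp separated the siControl-only region from a siChst7 peak. At Stard13 the gap was 24 bp, at Cryba4 26 bp, at Carm1 38 bp and at Notch1 84 bp. The region inside Angpt2 that stood farthest from common regions had a siChst7 peak 144 bp away. The Stard13, Carm1, Notch1 and Angpt2 regions stayed siControl-only in 5 of 5 other peak settings, that at Arc in 1 and that at Cryba4 in 0. None of these settings joins peaks across a gap, so staying siControl-only does not speak to a siChst7 peak this near. At the other end, the Wasl region had its nearest siChst7 peak 2679 kb away, and the Ascc3 region 1354 kb away.

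Nearest genes were assigned by the closest gene end within 100 kb, which gave 176 regions a gene and 174 distinct genes. Of these genes, 59 (33.9%) also owned a common region, 16 (9.20%) also owned a siChst7-only region, and 60 (34.5%) owned no other JUNB region in any list. Among genes of siChst7-only regions, 35.1% owned a common region and 28.3% (112) owned no other JUNB region. Among all 5498 genes with a region, 33.2% owned a common region and 7.20% a siChst7-only region. How many of these 5498 genes owned a single region was not counted, so the 34.5% has no such background. The genes with both kinds of group-only region were Actn4, Arntl, Ccn2, Foxp1, Jun, Lipc, Map4k3, Mtpn, Pax8, Peak1, Rbpms, S100a11, Sh3gl1, Tmem45a, Tomm20 and Vgll4. Cd109 and Mtpn had the most common regions of the genes with a siControl-only region, with 4 each, and Smad3, Socs3, Myo1e, Utrn, Retreg1, Igf2bp2 and Tomm20 had 3 each. Actn4 and Pkp4 were the genes with 2 siControl-only regions. Those of Actn4, an actin crosslinker, lay 5.5 kb apart inside the gene (chromosome 7, 28946207 to 28946544 and 28952045 to 28952617). Their folds were 5.15 and 5.59, and 6.44 and 6.21. The siControl-only region inside the neighbouring Eif3k lay 19.3 kb beyond. Of 203 siControl-only regions, 12 had another within 100 kb, regions on an unplaced contig among them. This count was not made for the other classes, so it does not show sparse or dense spacing.

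Among the genes with no JUNB region other than a siControl-only one, the highest-ranked was Meox1, a homeobox gene of the mesoderm, with a region 27.9 kb from the gene end (chromosome 11, 101849284 to 101849904). The region near Il20rb, a cytokine receptor subunit gene, had the highest replicate 2 fold of all siControl-only regions, 14.3, and 7.09 in replicate 1 (chromosome 9, 100440259 to 100440566). The nearest siChst7 peak lay 160.8 kb from the Meox1 region and 89.3 kb from the Il20rb region. The region inside Grk5, a kinase of G protein-coupled receptors, had folds of 6.44 and 5.59 with the nearest siChst7 peak 332.8 kb away. Genes that also owned other regions included Lrrk2, a kinase gene with 3 regions in all, whose siControl-only region inside the gene had folds of 8.93 and 11.6. Myo5a, a myosin motor gene with 3 regions, had one with 9.66 and 9.94. The region upstream of Notch1, a receptor that sets cell fate, lay 4.16 kb from the gene with folds of 7.09 and 5.59. The region near Col4a1, a basement membrane collagen gene with 2 common regions, had the same pair of folds.

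Ranks 11 to 40 by mean q rank in the siControl lists held 27 regions with a gene end within 100 kb. Folds ran from 2.29 to 11.3 in replicate 1 and from 1.80 to 12.2 in replicate 2. The region inside Igf1, a growth factor, had folds of 8.01 and 7.13 and lay 22.1 kb from the gene end and 1101 kb from a common region. That near Tnfrsf11b, a soluble decoy receptor of bone remodelling, had folds of 7.09 and 7.46 (chromosome 15, 54227160 to 54227534). The region inside Ltbp2, a microfibril protein related to carriers of latent TGF-beta, had folds of 7.54 and 6.64, and that near Ly86, a partner of an immune receptor on B cells and macrophages, had 6.44 and 8.08. The region inside Col4a6, a basement membrane collagen, had folds of 7.29 and 7.57 (chromosome X, 141439633 to 141440066).

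In the same ranks, the Myo1e region lay 124 bp inside the start of this unconventional myosin gene (chromosome 9, 70207313 to 70207589). Its folds were 7.12 and 6.83, and a common region lay 1.54 kb away. The region inside Ripor1 had folds of 7.73 and 6.83. The region 99.04 kb from Mtpn, which encodes the ankyrin repeat protein myotrophin, had 7.12 and 7.18. Krt27, a hair follicle keratin, was nearest to a region with folds of 11.3 and 4.97, and Tmem67, a gene of the primary cilium, to one with 7.73 and 6.21.

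The region 95.8 kb from Tcf21, a mesenchymal transcription factor that marks cardiac fibroblasts, had folds of 9.37 and 5.34, and the nearest siChst7 peak lay 260.6 kb away. The region inside Kars, which encodes a tRNA synthetase, had 6.61 and 6.77, and that inside Mtmr1, a phosphoinositide phosphatase gene, 7.73 and 6.63. Regions near Pgbd1, Faim2, Slfn2 and Fam110c had folds between 5.42 and 9.66. At Mrgprd, a sensory neuron receptor gene, and at Tmem267 both folds were low, 2.29 and 2.29 at Mrgprd and 2.47 and 1.80 at Tmem267. Of the 27 regions, 11 lay inside a gene, and 7 had a nearest gene that also owned a common region.

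Of 27 siControl-only regions within 1 kb of a gene end, 18 were at the 5′ end of the gene, 4 at the 3′ end and 5 at genes whose strand was not in the promoter table. This split was not made for the other classes, so it is not shown to be particular to siControl-only regions. The genes did not come from a fixed list, and of the 25 genes on the cell cycle list 0 had a siControl-only region. The Pcna region (chromosome 2, 132252768 to 132253164), 349 bp inside the gene of the DNA polymerase clamp, had folds of 5.93 and 4.97. The Stil region, at a centriole assembly gene, had 6.44 and 6.83, and the Cdkn2d region, 179 bp from a gene of an inhibitor of cyclin-dependent kinases, had 5.14 and 9.30. Baz2a, of a chromatin remodelling complex, had 4.44 and 5.94. The 27 regions also included those of Soat1, a cholesterol-esterifying enzyme (6.77 and 4.42), Slc25a42, a mitochondrial carrier (5.15 and 8.08), and Arl2, a small GTPase (7.73 and 5.59). Aimp2, part of the tRNA synthetase complex, had 6.95 and 4.94, and its region also overlapped the promoter window of the mismatch repair gene Pms2. Dtd2, Ajm1, Mettl27, Nudt18, Asb6, Ap3m2, Cryba4 and Arc were also among the 27, with folds between 4.20 and 9.32. The region nearest to Ajm1 lay inside Phpt1, and that nearest to Cryba4 inside Crybb1.

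Of 20 gene lists that cover fibroblast, cardiac, signalling and matrix genes, 9 had a siControl-only region at 15 distinct genes, and 11 had none. Over all 21900 protein-coding genes the share with a siControl-only region was 0.795% (174), with a siChst7-only region 1.81% (396) and with a common region 8.32% (1823). Lists without a siControl-only region were inflammatory and NF-kB genes (0 of 27), Wnt signalling (0 of 29), cardiomyocyte genes (0 of 31), cardiac transcription factors (0 of 24), cell cycle control (0 of 25), proteoglycan core proteins (0 of 21), matrix proteases (0 of 18), and endothelial, smooth muscle, epithelial and neuronal markers (0 of 12, 9, 10 and 9). With so low a background, a count of 0 in lists of this size says little.

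Fibroblast markers gave 2 of 34 genes with a siControl-only region, against 2 with a siChst7-only region and 12 with a common region. These were Tcf21 and Col1a1, the main fibrillar collagen of fibroblasts. The Col1a1 region (chromosome 11, 94936851 to 94937103) lay inside the gene, 790 bp from its end, with folds of 5.42 and 4.06, and Col1a1 also owned a common region. Of 22 AP-1 family genes 1 had a siControl-only region, against 3 with a siChst7-only and 11 with a common region. This was Jun, whose region 13.6 kb from the gene (chromosome 4, 95035365 to 95035775) had folds of 6.44 and 6.83. Of 29 genes of TGF-beta and Smad signalling 2 had one, Smad3 and Ltbp2, against 1 and 6. The Smad3 region lay 36.0 kb upstream of this signal transducer gene (chromosome 9, 63793643 to 63794117).

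Developmental transcription factor genes gave 4 of 38, against 4 with a siChst7-only region and 11 with a common region. They were Meox1 (folds 9.19 and 8.84), Mitf (7.20 and 5.48), Pax8 and Foxp1. Hippo pathway genes gave 1 of 17, Ccn2, a secreted matricellular protein, against 2 and 7. The Ccn2 region (chromosome 10, 24589045 to 24589751) had folds of 5.42 and 5.42. Growth factor genes gave 1 of 30, Igf1, against 1 and 8. Chondroitin and heparan sulfate synthesis genes, the family of Chst7, gave 1 of 37, against 1 and 7. This was Ust, a uronyl sulfotransferase acting on chondroitin and dermatan sulfate, with a region inside the gene 86.7 kb from its end (chromosome 10, 8431839 to 8432263) and folds of 8.91 and 4.82.

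Macrophage markers gave 3 of 11 genes with a siControl-only region, against 0 with a siChst7-only region, 0 with a common region and 4 with any region. Over all protein-coding genes the shares were 0.795%, 1.81%, 8.32% and 25.1% in the same order. The Cd68 region lay outside the gene, 224 bp from its 3′ end (chromosome 11, 69663646 to 69664216). It had folds of 6.97 and 4.26 and a −log10 q of 2.23 in replicate 2. The Cd14 region, 148 bp from the gene end (chromosome 18, 36726244 to 36726955), had 5.92 and 4.97. The Itgam region (chromosome 7, 128098378 to 128098672), inside the gene of an integrin subunit, had 7.73 and 5.59. Itgam is also on the integrin list, where 1 of 27 genes had a siControl-only region, against 2 with a siChst7-only and 10 with a common region. Cd68 and Cd14 stayed siControl-only in 1 of 5 other peak settings and Itgam in 5 of 5. No expression values were used here, so the labelled cell type could not be checked by marker levels.

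Symbol families gave small counts. Over all protein-coding genes 0.795% had a siControl-only, 1.81% a siChst7-only and 8.32% a common region. Collagens, laminins and Adam proteases had 3 of 113 genes with a siControl-only region, Col1a1, Col4a1 and Col4a6, against 2 with a siChst7-only and 21 with a common region. Zinc finger genes had 4 of 472 (0.847%), against 8 and 23, and solute carriers 3 of 375 (0.8%), against 6 and 38. Both siControl-only shares stood near that of all genes. Ubiquitin ligases and deubiquitinases had 3 of 388, against 11 and 26. Homeobox, Pax, Sox, Fox and T-box genes had 3 of 195, against 6 and 11, and phosphatases of the Ptp and Dusp families 0 of 68, against 2 and 18. No family was tested for enrichment.

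Which regions were siControl-only depended on how peaks were joined and cut. Of 203 regions, 175 stayed siControl-only when each list was held to a q of at most 0.001, and 152 when each peak was replaced by its summit with 100 bp on each side. A fold of at least 5 left 132, a 50% reciprocal overlap 130, and lists of equal length 100 (49.3%). The q, fold and length settings only remove peaks, and the 50% overlap only splits regions. No region can gain a siChst7 peak there, so staying describes its siControl peaks and not an absence from siChst7. In all 5 settings 52 regions (25.6%) stayed siControl-only, and in none of them 4 did. The 52 included the regions at Myo5a, Meox1, Il20rb, Dtd2, Mitf, Tcf21, Tnfrsf11b, Col4a6, Kars, Myo1e, Angpt2, Sqstm1, Jun, Itgam, Arl2, Notch1 and Col4a1. Those at Smad3, Igf1, Pax8, S100a11, Sap30bp and Ascc3 stayed in 4 of 5, at Ust and Foxp1 in 3, and at Ccn2 and Col1a1 in 2. The region at Pcna stayed in 1, and those at Soat1, Cryba4 and Baz2a in 0.

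**Figure D4:**
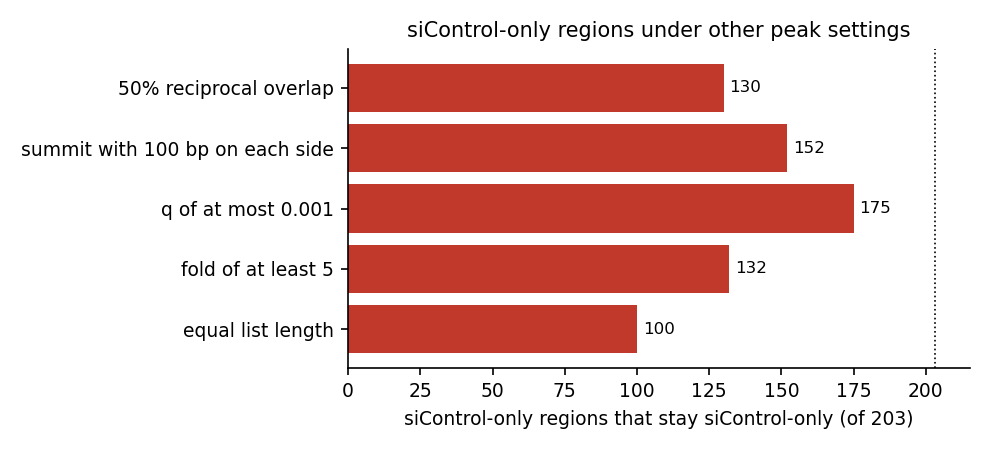
Number of the 203 siControl-only regions (horizontal, dotted line at 203) that overlap a siControl-only region under each of 5 other peak settings (vertical). Bars run from 100 at equal list length to 175 at a q of at most 0.001.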

How the data were processed

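JUNB CUT&RUN was represented by 4 deposited peak lists, 2 from siChst7 and 2 from siControl cells, matched to samples by the siRNA, antibody, day and number in the peak names. Per the submitters' processing notes, Bowtie2, MACS3 and the build mm10 were used, without versions or settings. No source used here says whether an IgG library served as control. Per the deposited files, peaks were called per library, with a fold enrichment (a ratio), a p-value and a q-value as −log10, a summit offset in bp, and a score that is 10 times the −log10 q. The depth behind each list is unknown here. Intervals of shares are exact Clopper-Pearson 95% intervals that cover counting error only. The interval of the median distance is not of this kind and runs between values of single regions.

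Peaks overlapping by at least 1 bp were joined. A region's summit is that of its peak with the highest −log10 q, and a region's value in a list is that of its best peak there. Coordinates are 1-based on mm10. Nearest genes came from a RefSeq table of GRCm38.p6 with 21900 protein-coding genes, by either gene end within 100 kb. The promoter table covered 17492 of these genes. All 453 list entries matched. Named regions were ranks 11 to 40, extremes of width and of distance to common regions, list genes, genes with 2 regions and regions within 1 kb of a gene end. Regions closest to a siChst7 peak and others outside this rule were named after their values were seen. The regions and lists were chosen with earlier results of these data known. No test was made, because the regions come from the contrast itself. Joining and gene assignment were tested on simulated peak lists. The labels do not say whether cultures were separate. Alternatives were other overlaps, summits, stricter q or fold, equal list length (4735 peaks), autosomes and X, and leaving out each library. Software was Python 3.11.15, NumPy 2.4.6, pandas 2.3.3, SciPy 1.17.1 and Matplotlib 3.10.9.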

Additional observations from a re-analysis of the deposited data

How the results depend on the processing

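The number of siControl-only regions was 203. It was 313 with 50% reciprocal overlap and 332 with summit windows, and between 256 and 1274 when a library was left out. The value was 256 without siChst7 replicate 2, 1110 without siChst7 replicate 1, 979 without siControl replicate 1 and 1274 without siControl replicate 2. A region then needs 1 siControl list, or to be missing from 1 siChst7 list, which by construction raises the number. With the replicate block, pairing libraries by number, 1377 regions were in siControl and not in siChst7 for number 1 alone and 2489 for number 2 alone; asking for both numbers gives the 203 regions again. No label ties the numbers to shared cultures. At equal list length the number was 294, with a fold of at least 5 it was 224, and with a q of at most 0.001 it was 207.

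The median width was 411 bp. It was 359 bp with 50% reciprocal overlap, 248.5 bp with summit windows, 466.5 bp with a fold of at least 5, 496.5 bp at equal list length, and 242 to 505.5 bp when a library was left out. The median distance to the nearest common region was 132 kb and moved beyond its interval (84.2 to 201 kb) with 50% reciprocal overlap, to 220.0 kb. Distinct nearest genes numbered 174, and 264 with 50% reciprocal overlap, 273 with summit windows, 214 to 995 when a library was left out, and 104 when the gene end had to lie within 20 kb. The lower width with summit windows and the lower gene count at 20 kb follow from those settings by construction. With a library left out, the added regions bring added genes. The cause of the other shifts was not tested. The shares near gene ends, inside genes and within 10 kb of a common region stayed inside their intervals in every setting run, a 2.5 kb gene-end window (18.7%) included. A fold of at least 3, chosen after seeing the data, left 196 of the 203 regions. The planned AP-1 search around all summits was not run, because no genome sequence was used here.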
